A study of Homo sapiens with 42 samples.

Results

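The genes described here are those whose transcripts differed in 1205Lu cells, an established human melanoma line, after 6 h with an Aurora kinase inhibitor. The 6 inhibitor samples were 3 of cells given AZD1152 at 0.5 µM and 3 of cells given SNS-314 at 0.05 µM. They were set against 4 samples of control cells taken at 0 h, so 10 of the 42 samples of the series enter the comparison. Untreated cells at later times were not analysed here, so inhibitor and 6 h in culture cannot be told apart. Every sample was total RNA of the same line, hybridised to 1 Illumina bead array, and all 8917 annotated genes above background were tested. Genes of the NF-κB pathway and chemokine genes were tested with the rest but set aside in the description. The labels do not say whether replicates were separate cultures, so the p-values cover only the scatter among these samples, which may be technical.

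Aurora kinases phosphorylate proteins of the spindle, the centromere and the midbody. Aurora A acts at centrosomes and spindle poles, and Aurora B acts in the chromosomal passenger complex with INCENP, survivin (BIRC5) and borealin (CDCA8). AZD1152, also known as barasertib, is selective for Aurora B, and SNS-314 inhibits all Aurora kinases. Both act on enzyme activity and not on the kinases' transcripts, so no transcript measured here checks drug action.

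The labelled cell type was compared with melanocyte lineage markers. Of 10 such markers SOX10, S100A1 and PRAME were measured, and none of the 3 was called. MITF, TYR, TYRP1, PMEL, MLANA and S100B were above background on 0 of the 10 arrays, so the lineage rested on those 3 markers. Their summed intensity was 8351 to 10850 on the inhibitor arrays and 9853 to 11160 on the control arrays. Of 8 fibroblast markers PDGFRA, PDGFRB and FAP were measured, with a summed intensity of 4248 to 4929 on the inhibitor arrays and 4639 to 4863 on the control arrays, while COL1A1, COL3A1, DCN, LUM and THY1 were above background on 0 arrays. None of 8 leukocyte and 6 endothelial defining markers was above background, and of 6 keratinocyte markers KRT10 alone was. Of a wider list of 12 leukocyte genes CD68 was measured, with a change of -0.19. In RNA from a whole culture, fewer cells of a kind and less RNA per cell cannot be told apart. Replicate arrays of a group correlated at 0.986 to 0.993 across genes, and 20.5% to 26.7% of probes per array were above background.

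With both inhibitors pooled, 449 of 8917 genes were called, meaning a Benjamini-Hochberg adjusted p under 0.05 in limma, which is 5.04% of all genes. Of these, 210 were higher at 6 h (2.36% of all) and 239 were lower (2.68%). The chemokine and NF-κB lists, set aside, held 28 of the genes that were lower and 15 of those lower by a fitted change of 2-fold or more. Outside them 209 genes were higher and 211 were lower, and most changes were small. By fitted change 5 of these were higher by 2-fold or more (DDAH1, RDH10, TAGLN, NNMT and VSIR) and 4 were lower by as much (IRAK2, CEBPD, LIF and EBF1), although VSIR and EBF1 were below background in 1 group and have only a bound. When each array was instead scaled to its 75th percentile, the split was 242 higher to 149 lower, or 61.9% higher in place of 46.8%, and the median change of all genes was 0.0391 in place of -0.0032 on the log2 scale. For 625 genes (7.01%) the groups did not overlap, with all 6 inhibitor arrays above all 4 controls for 304 genes (3.41%) and below them for 321 (3.6%).

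The labels name no chip, so the chip of each array was inferred from the last 2 digits of its raw column name. By that reading the arrays came from several chips, numbered here. Chips 2 and 3 each held 1 array of each inhibitor and 2 controls, and chip 1 held the third array of each inhibitor and no control. Within chip 2 alone 99 genes were called, and within chip 3 alone 136. These 2 chips share no array. Across all 8917 genes, which are not independent replicates, the changes within the 2 chips correlated at 0.585 (Pearson), and 62.5% had the same sign. The 30 genes with the largest changes, which were chosen with these arrays among others, had the same sign on both chips in 30 of 30 cases. So did all 209 genes called higher and all 211 called lower outside the lists set aside. The choice favours a like sign, so these counts are no separate check.

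**Figure D1:**
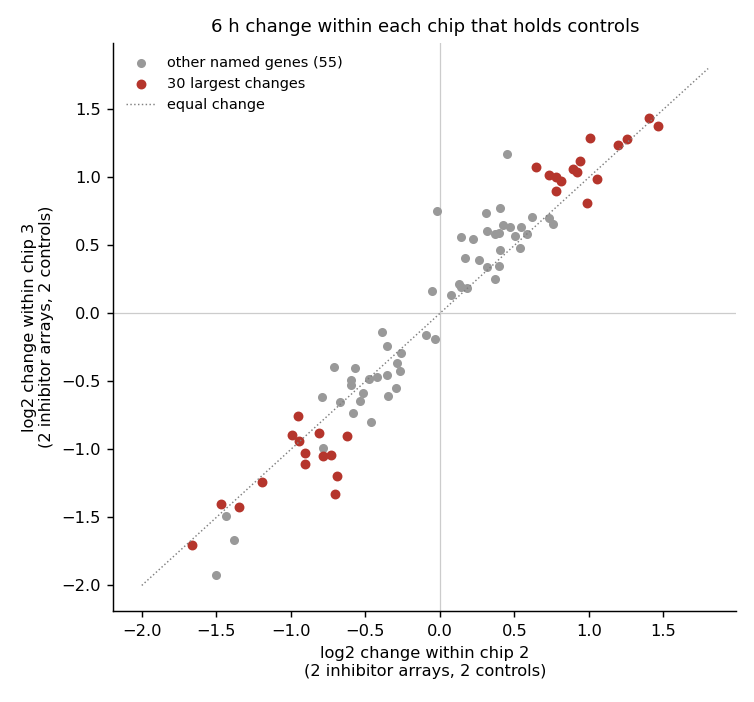
Change at 6 h within chip 2 (x axis) and within chip 3 (y axis) for each named gene, as the difference in log2 intensity between 2 inhibitor arrays and 2 control arrays. The 30 genes with the largest changes (red) have the same sign on both chips, but they were chosen with these arrays among others. Their like sign is therefore no separate check. RDH10 lies at 1.40 and 1.44 and IRAK2 at -1.66 and -1.71, while INCENP lies at -0.02 on chip 2 and 0.76 on chip 3.

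DDAH1 and RDH10 had the largest rises. DDAH1, whose enzyme breaks down asymmetric dimethylarginine, an inhibitor of nitric oxide synthase, had a normalized log2 intensity of 11.10, 11.23 and 11.45 on the AZD1152 arrays and 11.48, 11.10 and 11.36 on the SNS-314 arrays, against 10.16, 9.91, 9.98 and 9.79 on the control arrays. Every inhibitor array lay above every control array, and DDAH1 rose by 1.33 ± 0.11 on the log2 scale (SE, adjusted p = 1.67e-12), or 2.51-fold. RDH10, which oxidises retinol to retinaldehyde on the way to retinoic acid, stood at 12.10, 12.33 and 12.20 on the AZD1152 arrays and 12.38, 12.41 and 11.82 on the SNS-314 arrays, against 10.94, 10.74, 10.95 and 10.91 on the control arrays. It rose by 1.32 ± 0.11 (adjusted p = 1.92e-12), again with no overlap between groups. NNMT, which methylates nicotinamide, stood at 10.33, 10.24 and 10.49 on the AZD1152 arrays and 10.35, 10.25 and 9.88 on the SNS-314 arrays, against 9.31, 8.98, 9.03 and 8.99 on the control arrays. Its rise was 1.18 ± 0.20 (adjusted p = 5.38e-05), also without overlap. SPTLC2, a subunit of the enzyme that starts sphingolipid synthesis, was not above background on any control array, and its inhibitor and control arrays overlapped, so no fold is given (adjusted p = 0.000119).

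**Figure D2:**
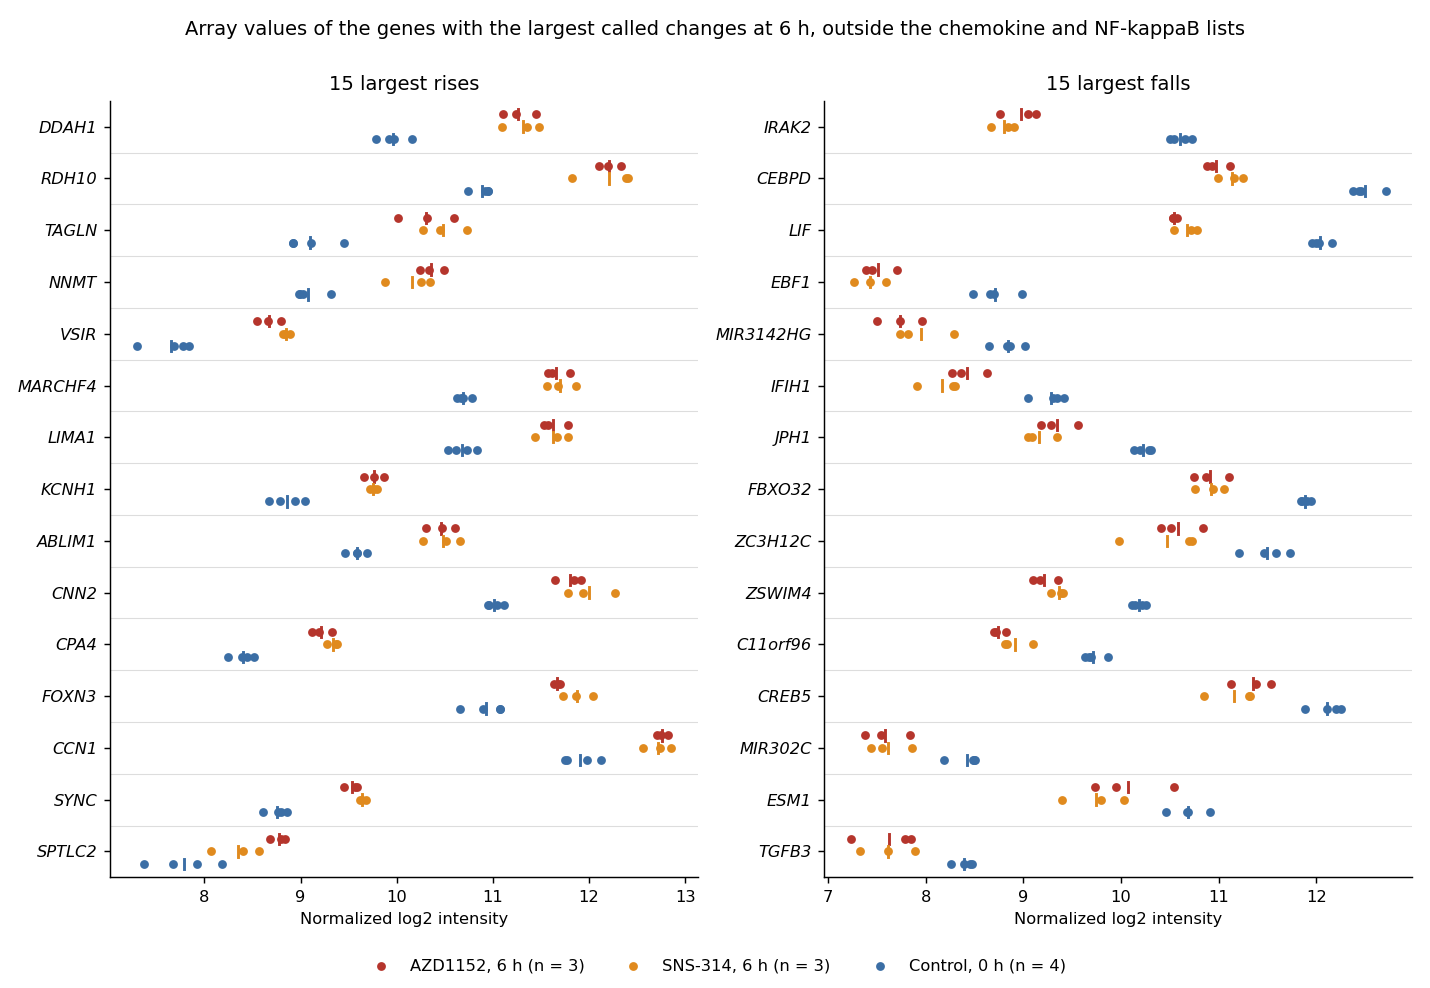
Normalized log2 intensity (x axis) of the 15 called genes with the largest rise (left) and the 15 with the largest fall (right) at 6 h, outside the chemokine and NF-κB lists, with 1 point per array and a bar at each group mean, AZD1152 and SNS-314 above the 0 h control for each gene. Inhibitor and control arrays do not overlap for 28 of the 30 genes, the exceptions being SPTLC2 and ESM1. The genes were chosen for large changes on these same arrays, which favours such separation. Over all genes the arrays do not overlap for 7.01%.

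Genes of the actin cytoskeleton formed the next group. Serum response factor (SRF) and its actin-sensing partners of the MRTF family switch on many genes that build and anchor actin filaments. Of 21 measured genes of this list 7 were higher and 0 lower, beside 2.36% and 2.68% of all genes. The list's median change was 0.13, against -0.0032 over all genes. That median is not particular to this list, with 0.13 for endoplasmic reticulum chaperones, 0.15 for p53 targets and 0.18 for cholesterol synthesis. This list and those below were chosen with earlier results of these data known, so their counts are descriptive and were not tested. TAGLN (transgelin, an actin-binding protein of contractile cells) stood at 10.32, 10.59 and 10.01 on the AZD1152 arrays and 10.45, 10.73 and 10.27 on the SNS-314 arrays, against 8.92, 8.92, 9.11 and 9.45 on the control arrays. It rose by 1.29 ± 0.14 (adjusted p = 1.71e-09) with no overlap. LIMA1, which cross-links actin filaments, stood at 11.78, 11.57 and 11.53 on the AZD1152 arrays and 11.78, 11.67 and 11.43 on the SNS-314 arrays, against 10.83, 10.62, 10.53 and 10.73 on the control arrays. CNN2 (calponin 2, an actin-binding protein) stood at 11.85, 11.91 and 11.64 on the AZD1152 arrays and 11.93, 12.27 and 11.78 on the SNS-314 arrays, against 11.04, 10.96, 11.11 and 10.95 on the control arrays. Neither gene's groups overlapped, and LIMA1 rose by 0.95 ± 0.12 (adjusted p = 1.91e-07) and CNN2 by 0.88 ± 0.11 (adjusted p = 3.07e-07).

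The other called members of the actin list moved less, and they were named after their values were seen, as were the called members of other lists beyond the 2 with the largest changes. TGFB1I1 (Hic-5, a focal adhesion adaptor) rose by 0.48 (adjusted p = 6.53e-05) and ZYX (zyxin, of focal adhesions) by 0.46 (adjusted p = 0.00262), although a second ZYX probe gave 0.16 and the call was lost when probes were averaged. CALD1 (caldesmon, which binds actin and myosin) was 0.51 higher (adjusted p = 0.0113), but 0.44 higher with an adjusted p of 0.0523 without SNS-314 replicate 1. SRF itself stood at 11.91, 11.90 and 11.72 on the AZD1152 arrays and 11.87, 11.93 and 11.72 on the SNS-314 arrays, against 11.46, 11.45, 11.51 and 11.51 on the control arrays. Its groups did not overlap, and it was 0.36 higher (adjusted p = 0.0251), but the call was lost without any 1 of 8 arrays, all but AZD1152 replicate 3 and SNS-314 replicate 3, at 0.33 to 0.37 higher. The list's count was 5 to 8 when 1 array was left out. Among members that were not called, ACTN1 (α-actinin) had a change of 0.34 and VCL (vinculin) of 0.28, and the actins ACTB and ACTG1 had changes of 0.06 and 0.13. Outside the list, ABLIM1, an actin-binding LIM protein, rose by 0.89 ± 0.10 (adjusted p = 2.17e-08), and a second probe gave 0.80. SYNC (syncoilin, an intermediate filament protein) rose by 0.83 ± 0.10 (adjusted p = 6.44e-08).

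Promoter sequences from RefSeq (GRCh38.p14), from 250 bases before to 50 after a gene's start, were matched to 7335 of the 8917 genes, with the first listed start of each gene used. Those of SRF and CNN2, which were higher, and of EGR1, which was lower, are shown because each holds a CArG box, the motif bound by SRF, which is in capitals. The motifs and the promoters printed were chosen after the genes' values were seen. SRF (chr6:43171019-43171318), CNN2 (chr19:1026358-1026657) and EGR1 (chr5:138465229-138465528) all lie on the + strand.
SRF: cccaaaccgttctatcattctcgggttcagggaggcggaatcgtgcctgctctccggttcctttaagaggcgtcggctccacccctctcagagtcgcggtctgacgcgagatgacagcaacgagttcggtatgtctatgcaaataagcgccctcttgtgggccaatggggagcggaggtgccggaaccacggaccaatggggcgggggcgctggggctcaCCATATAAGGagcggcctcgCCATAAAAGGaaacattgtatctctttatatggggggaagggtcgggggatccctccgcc
CNN2: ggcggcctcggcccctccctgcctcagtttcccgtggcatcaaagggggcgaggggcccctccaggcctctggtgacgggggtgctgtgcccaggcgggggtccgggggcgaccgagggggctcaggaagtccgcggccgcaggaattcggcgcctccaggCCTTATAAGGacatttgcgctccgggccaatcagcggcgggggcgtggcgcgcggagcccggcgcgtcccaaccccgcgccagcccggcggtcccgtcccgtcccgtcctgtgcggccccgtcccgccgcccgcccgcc
EGR1: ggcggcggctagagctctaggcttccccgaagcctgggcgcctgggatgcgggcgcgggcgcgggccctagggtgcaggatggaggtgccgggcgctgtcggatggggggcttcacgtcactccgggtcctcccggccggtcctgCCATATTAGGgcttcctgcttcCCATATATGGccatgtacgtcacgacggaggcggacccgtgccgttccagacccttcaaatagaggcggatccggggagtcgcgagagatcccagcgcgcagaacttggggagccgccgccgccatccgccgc
Counted from the gene's start, the boxes begin at positions -30 and -10 in SRF, -89 in CNN2, and -105 and -83 in EGR1. Searched on both strands, a CArG box stood in 8 of 172 promoters of genes that were higher (4.65%, among them CNN2, GBP1, LEF1, MYLK, PDGFA and SRF). It stood in 4 of 162 promoters of genes that were lower (2.47%: EGR1, ISG15, RPS6KA2 and SINHCAF), in 1.05% of the promoters of all measured genes and in 1.29% of all 27305 RefSeq promoters. Among actin list members it was present in 2 of 6 that were called and in 3 of 13 that were not. Of the 8 genes with a box that were higher, MYLK (adjusted p = 0.0414) and SRF each lost the call without any 1 of 8 arrays. LEF1 lost it without any 1 of 6, so the share of 4.65% rests in part on calls near the threshold. ARHGDIB, CNN2, PDGFA and RHOJ, also of the 8, kept theirs when any 1 array was left out. EGR1, an immediate early transcription factor, fell by 0.43 (adjusted p = 0.00503). A match says only that these letters lie in this window, and no test was made.

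Target genes of the coactivators YAP and TAZ, which act through TEAD factors, include matricellular proteins and regulators of the Hippo pathway. Of 17 measured members 4 were higher and 0 lower, beside 2.36% and 2.68% of all genes, with a median change of 0.22 (log2). The count was 2 when only probes above background on every array compared were kept. CCN1, a secreted matricellular protein, stood at 12.71, 12.82 and 12.74 on the AZD1152 arrays and 12.85, 12.74 and 12.56 on the SNS-314 arrays, against 12.12, 11.98, 11.77 and 11.75 on the control arrays. The groups did not overlap, and it rose by 0.83 ± 0.14 (adjusted p = 7.21e-05). GADD45B, a stress-inducible regulator of MAP kinase signalling, rose by 0.60 ± 0.11 (adjusted p = 0.000226), and CRIM1, a transmembrane binder of bone morphogenetic proteins, by 0.54 (adjusted p = 0.00167). PTPN14, a phosphatase that restrains YAP, was 0.33 higher (adjusted p = 0.0207), and was not called without SNS-314 replicate 1, control replicate 1 or control replicate 4 (0.30 to 0.33). CCN2, a relative of CCN1, missed the threshold with a change of 0.30 (adjusted p = 0.0536). The TEAD motif GGAATG, on either strand, stood in 10.5% of promoters of genes that were higher, in 8.64% of those of genes that were lower and in 10.4% of those of all measured genes.

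Several further rises belonged to none of the lists. VSIR, which encodes the immune checkpoint protein VISTA, was above background on all 6 inhibitor arrays and on 0 of 4 control arrays. Its mean log2 intensity was 8.76 ± 0.13 with the inhibitors and 7.65 ± 0.25 in the controls (SD, n = 6 and 4), a rise of at least 1.08-fold against the background threshold (adjusted p = 1.71e-09 in limma). MARCHF4, a membrane-bound ubiquitin ligase, rose by 0.99 ± 0.14 (adjusted p = 2.03e-06). KCNH1, a voltage-gated potassium channel, stood at 9.87, 9.66 and 9.76 on the AZD1152 arrays and 9.72, 9.79 and 9.76 on the SNS-314 arrays, against 8.67, 8.94, 8.79 and 9.05 on the control arrays. It rose by 0.90 ± 0.09 (adjusted p = 1.74e-09). FOXN3, a forkhead transcription factor, rose by 0.85 ± 0.09 and CPA4, a carboxypeptidase, by 0.88 ± 0.11. Inhibitor and control arrays did not overlap for any of these 5 genes.

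The largest falls outside the lists set aside included signalling proteins and transcription factors known from inflammatory responses. IRAK2, a kinase that relays signals from interleukin-1 and Toll-like receptors, stood at 9.05, 9.13 and 8.76 on the AZD1152 arrays and 8.67, 8.84 and 8.90 on the SNS-314 arrays, against 10.54, 10.51, 10.65 and 10.73 on the control arrays. The groups were well apart, and it fell by 1.71 (SE 0.11, adjusted p = 1.72e-15). CEBPD, a transcription factor of the acute phase response, stood at 10.88, 11.12 and 10.93 on the AZD1152 arrays and 10.99, 11.25 and 11.16 on the SNS-314 arrays, against 12.44, 12.37, 12.46 and 12.71 on the control arrays. It fell by 1.44 (SE 0.08, adjusted p = 1.51e-17) with no overlap. LIF, a cytokine of the interleukin-6 family, stood at 10.54, 10.57 and 10.53 on the AZD1152 arrays and 10.72, 10.77 and 10.54 on the SNS-314 arrays, against 11.99, 11.95, 12.16 and 12.03 on the control arrays. It fell by 1.42 (SE 0.11, adjusted p = 4.72e-13), again with no overlap. EBF1, a transcription factor best known from B cells, was above background on 0 of 6 inhibitor arrays and 2 of 4 control arrays, with means of 7.47 ± 0.15 with the inhibitors and 8.71 ± 0.21 in the controls (SD, n = 6 and 4). It was at least 1.16-fold lower with the inhibitors (adjusted p = 5.86e-09 in limma).

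MIR3142HG, a microRNA host transcript, was likewise above background on 0 of 6 inhibitor arrays and 2 of 4 control arrays. Its means were 7.84 ± 0.27 with the inhibitors and 8.84 ± 0.15 in the controls (SD, n = 6 and 4), and it was at least 1.28-fold lower with the inhibitors (adjusted p = 2.47e-09 in limma). IFIH1, which encodes the viral RNA sensor MDA5, was above background on 2 of 3 AZD1152 arrays, 0 of 3 SNS-314 arrays and 4 of 4 controls. Its fitted change was -0.98 (SE 0.11, adjusted p = 4.25e-09), with 4 of the 6 inhibitor arrays not well above background, and it was at least 1.69-fold lower with SNS-314. The promoters of these genes are shown because each holds a match to the κB consensus, in capitals, although neither gene is in the lists set aside. IFIH1 lies at chr2:162318635-162318934 on the - strand and MIR3142HG at chr5:160468001-160468300 on the + strand.
IFIH1: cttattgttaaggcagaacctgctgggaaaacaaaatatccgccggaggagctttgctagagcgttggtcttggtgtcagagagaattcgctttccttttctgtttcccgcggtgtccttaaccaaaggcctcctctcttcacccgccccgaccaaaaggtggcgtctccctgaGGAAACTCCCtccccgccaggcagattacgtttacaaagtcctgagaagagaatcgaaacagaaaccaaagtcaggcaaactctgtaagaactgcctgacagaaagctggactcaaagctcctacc
MIR3142HG: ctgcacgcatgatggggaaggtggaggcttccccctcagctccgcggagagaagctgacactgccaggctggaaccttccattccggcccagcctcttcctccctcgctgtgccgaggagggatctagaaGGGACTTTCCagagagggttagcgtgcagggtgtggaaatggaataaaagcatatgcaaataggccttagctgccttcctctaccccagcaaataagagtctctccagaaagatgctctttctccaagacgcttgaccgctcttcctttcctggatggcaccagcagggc
The matches begin at position -76 in IFIH1 and -120 in MIR3142HG. The κB consensus, on either strand, stood in 16 of 162 promoters of genes that were lower outside the lists set aside (9.88%), in 14 of 172 of genes that were higher (8.14%) and in 6.45% of those of all measured genes. Among genes of the lists set aside that were lower, it stood in 10 of 23 (43.5%). The AP-1 motif TGANTCA stood in 7.41% of promoters of genes that were lower, in 6.4% of those of genes that were higher and in 4.25% of those of all measured genes.

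Other falls were spread over many functions. JPH1 (junctophilin, which ties the plasma membrane to the endoplasmic reticulum in excitable cells) fell by 0.98 (SE 0.10, adjusted p = 2.93e-10). FBXO32 (atrogin-1, a ubiquitin ligase subunit) fell by 0.97 (SE 0.10, adjusted p = 5.62e-10), while a second probe gave -0.30. ZC3H12C, of a family of zinc finger proteins that act on RNA, fell by 0.97 and CREB5, a transcription factor that binds cAMP response elements, by 0.85. ZSWIM4 fell by 0.90 and C11orf96 by 0.89. ESM1, which encodes the secreted proteoglycan endocan, fell by 0.78 (adjusted p = 5.6e-05), but its groups overlapped, with arrays from 9.40 to 10.54 with the inhibitors and from 10.46 to 10.91 in the controls. TGFB3, a transforming growth factor β ligand, and the probe annotated to MIR302C were above background on 0 of 6 inhibitor arrays and 2 of 4 controls, and no fold is given. RGS16, which shortens signalling by G proteins, had the same pattern, with means of 8.13 ± 0.18 with the inhibitors and 8.73 ± 0.12 in the controls (SD, n = 6 and 4), and was at least 1.18-fold lower (adjusted p = 6.31e-05 in limma).

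Ligands and early response genes moved in both directions, where 2.36% of all genes were higher and 2.68% lower. Of 20 measured cytokines and growth factors other than chemokines 3 were higher and 6 lower, with a median of -0.10. Of the 6, IL1B, IL6, IL1A, PTGS2 and IL32 are also in the NF-κB list, and LIF is not. The platelet-derived growth factor gene PDGFA rose by 0.58 (adjusted p = 0.000838), the neurotrophin gene BDNF by 0.55 (adjusted p = 0.000255) and NRG1, a ligand of ERBB receptors, by 0.47 (adjusted p = 0.000445). Of 19 measured genes of ERK output and feedback 0 were higher and 3 lower, LIF, IER3 and DUSP6, with a median of -0.08. IER3, an immediate early gene that is also in the NF-κB list, had a mean of 13.83 ± 0.16 with the inhibitors and 14.80 ± 0.14 in the controls (SD, n = 6 and 4). It fell by 0.97 (SE 0.10, adjusted p = 3.51e-10). DUSP6, the ERK phosphatase, was lower with a change of -0.28 (adjusted p = 0.0437), and that call was lost without any 1 of 8 arrays, all but AZD1152 replicate 1 and SNS-314 replicate 2 (-0.31 to -0.26). Of 22 immediate early and AP-1 factors 3 were higher (BTG1, KLF2 and KLF6) and 3 lower (IER3, MAFF and EGR1). MAFF was above background on 2 of 6 inhibitor arrays and 3 of 4 controls and had a change of -0.46, while its other probe gave -0.15. It was not called when probes were averaged (adjusted p = 0.13) or with the replicate number as a block (adjusted p = 0.0678). KLF2 was not called without control replicate 4 (0.34 in place of 0.38), and KLF6 was not without SNS-314 replicate 2 or control replicates 2 or 3 (0.29 to 0.36, in place of 0.37).

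The listed interferon-stimulated genes, which encode sensors and effectors against viruses, were lower where they were called. Of 30 measured members 9 were lower and 0 higher, beside 2.68% and 2.36% of all genes. The fitted change was above 0 in 0 of 30, and the median was -0.26 (log2). GBP1, another interferon-induced gene, is not on this list and was called higher. Besides IFIH1, the GTPase gene MX1 stood at 11.42, 11.17 and 11.08 on the AZD1152 arrays and 11.05, 11.44 and 11.36 on the SNS-314 arrays, against 11.89, 11.92, 12.03 and 11.89 on the control arrays. It fell by 0.68 (SE 0.11, adjusted p = 3.09e-05), with no overlap. ISG20, an RNA exonuclease, fell by 0.49 (adjusted p = 0.00113) and ISG15, a ubiquitin-like modifier, by 0.46 (adjusted p = 0.00518), and both kept their calls when any 1 array was left out. OAS2, RIGI, PARP9, OAS3 and IRF9 had changes of -0.39, -0.34, -0.32, -0.29 and -0.29, and each lost its call without at least 1 array. The count of 9 was 5 without AZD1152 replicate 2, and 4 under scaling to the 75th percentile or with the replicate number as a block. By inhibitor, 3 members were lower with AZD1152 and 8 with SNS-314, and that difference in counts was not tested.

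Over all genes 2.36% were higher and 2.68% lower, and no list count was tested against these shares. Of 20 secreted proteases and inhibitors 2 were lower and 0 higher, the matrix proteases ADAMTS9 (fell by 0.72, adjusted p = 2.68e-05) and ADAMTS1 (fell by 0.59, adjusted p = 1.33e-05). Of 12 Wnt pathway genes 2 were higher and 2 lower, and leaving out 1 array took either count to 1 at the lowest. LEF1, a transcription factor of the pathway, had a change of 0.31 (adjusted p = 0.042) and was not called without AZD1152 replicate 3, SNS-314 replicates 1 or 2 or control replicates 1, 3 or 4 (0.27 to 0.33). FZD8, a Wnt receptor, had a change of -0.41 (adjusted p = 0.0168) and was not called without AZD1152 replicate 3 or control replicates 3 or 4 (-0.39 to -0.38). AXIN2, a scaffold that is itself a target of β-catenin, fell by 0.57 (SE 0.10, adjusted p = 6.62e-05). WNT5B, a Wnt ligand, was above background on 5 of 6 inhibitor arrays and 0 of 4 controls, with means of 8.70 ± 0.08 with the inhibitors and 7.93 ± 0.41 in the controls (SD, n = 6 and 4), and was at least 1.03-fold higher (adjusted p = 0.000176 in limma). Of 12 Notch pathway genes 1 was higher and 2 lower, and the target gene HEY1 fell by 0.61 (SE 0.10, adjusted p = 3.32e-05), though another probe gave -0.10. The other lower gene, JAG1, was not called without control replicates 2 or 4. Of 18 ID and BMP or TGF-β feedback genes 1 was higher and 1 lower, and ID2, an inhibitor of basic helix-loop-helix factors, rose by 0.46 (SE 0.09, adjusted p = 0.000303), with 0.50 in another probe. Of 9 mesenchymal genes 0 were higher and 2 lower, and the transcription factor gene SNAI2 fell by 0.46 (adjusted p = 0.00104), while another probe gave -0.25. Of 13 integrin genes 1 was higher and 2 lower, and ITGA3, a subunit of laminin receptors, rose by 0.34 (adjusted p = 0.00392). ITGA5, which was lower, was not called without AZD1152 replicate 3, SNS-314 replicate 1 or control replicates 1 or 4. Of 16 receptor tyrosine kinases and ephrins 2 were higher and 1 lower, the ligand EFNA1, which was above background on 1 of 10 arrays, so no fold is given.

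Called genes of metabolism and transport were mostly single members of their lists, where 2.36% of all genes were higher and 2.68% lower. SLC2A1, the glucose transporter GLUT1, stood at 11.80, 11.96 and 11.96 on the AZD1152 arrays and 11.85, 12.05 and 12.00 on the SNS-314 arrays, against 11.09, 11.10, 11.34 and 11.27 on the control arrays. It rose by 0.74 (SE 0.10, adjusted p = 1.71e-06) and was the 1 called gene of 17 glycolysis genes. TXNIP, an arrestin-like protein that limits glucose uptake, stood at 9.39, 9.90 and 9.93 on the AZD1152 arrays and 9.84, 9.92 and 9.75 on the SNS-314 arrays, against 8.78, 8.93, 9.19 and 9.31 on the control arrays. It rose by 0.74 (SE 0.12, adjusted p = 3.05e-05), and neither gene's groups overlapped. Of 21 hypoxia response genes PFKFB4, an enzyme that regulates glycolysis, rose by 0.50 (adjusted p = 0.000436). The oxygen-sensing hydroxylase gene EGLN1 fell by 0.58 (adjusted p = 2.87e-06), and CA12 and STC1 of the same list fell by 0.50 and 0.45. Of 22 amino acid stress (ATF4) genes 3 were higher and 1 lower, and SLC7A5, a transporter of large neutral amino acids, rose by 0.51 (adjusted p = 0.000145), while VLDLR was above background on 0 of 4 controls and no fold is given. STC2, also higher, was not called without control replicate 1. The lower gene, CEBPB (adjusted p = 0.0442), was not called without any 1 of 7 arrays, all but AZD1152 replicate 1, SNS-314 replicate 2 and control replicate 1. HSPA5 (BiP, which folds proteins in the endoplasmic reticulum) rose by 0.50 (adjusted p = 0.00305) as the 1 called gene of 20 in its list. IRS2, an adaptor of the insulin and IGF receptors, rose by 0.48 (adjusted p = 0.00143) and the clock repressor gene CRY1 by 0.48 (adjusted p = 0.00155). STRA6, a membrane receptor for retinol transport, fell by 0.37 (adjusted p = 0.00594). Of 27 solute carriers 2 were higher and 2 lower, SLC11A2 and SLC39A14. SLC39A14, a metal ion transporter, had a change of -0.39 (adjusted p = 0.046) and was not called without any 1 of the 10 arrays (-0.41 to -0.35). Of 11 retinoid genes (RDH10 and STRA6) and of 12 clock genes (CRY1 and BHLHE41) 1 each was higher and 1 lower, of 18 heat shock genes 2 were higher (HSPA1B and BAG3), and of 16 cholesterol synthesis genes 1 was (INSIG1). Of 10 glucocorticoid response genes 2 were lower, CEBPD and NFKBIA, the second also in the NF-κB list.

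Of 26 p53 target genes 2 were higher and 2 lower, beside 2.36% and 2.68% of all genes, with a median of 0.15. Leaving out 1 array gave 1 to 3 higher and 1 to 2 lower, and other processing gave 1 to 4 higher and 1 to 2 lower. SPATA18, a gene of mitochondrial quality control, had a change of 0.41 (adjusted p = 0.0414) and was not called without any 1 of 7 arrays, all but SNS-314 replicate 3 and control replicates 1 and 2 (0.27 to 0.42). XPC, a DNA damage sensor, had a change of -0.32 (adjusted p = 0.0445) and was not called without any 1 of 8 arrays, all but AZD1152 replicate 3 and control replicate 4 (-0.33 to -0.27). PHLDA3, which restrains AKT, rose by 0.64 (SE 0.10, adjusted p = 2.43e-05). TNFRSF10B, a death receptor for TRAIL, fell by 0.41 (SE 0.08, adjusted p = 0.000832), and another probe gave -0.58. The cyclin-dependent kinase inhibitor gene CDKN1A (p21) had a change of 0.20 ± 0.09 (adjusted p = 0.239), and was called under scaling to the 75th percentile (0.30, adjusted p = 0.0289). GDF15, a stress-induced cytokine, had a change of 0.29 ± 0.14 (adjusted p = 0.329), and was called with the chip as a fixed block (0.38, adjusted p = 0.0271) but not as a random block (0.35, adjusted p = 0.0749). Of 11 BCL2 family genes 2 were higher and 0 lower. The survival gene BCL2L1 stood at 10.88, 11.08 and 11.10 on the AZD1152 arrays and 11.02, 11.15 and 11.03 on the SNS-314 arrays, against 10.36, 10.59, 10.53 and 10.42 on the control arrays. It rose by 0.56 (SE 0.10, adjusted p = 7.41e-05), with no overlap.

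The cell cycle lists gave no calls at 6 h, where 5.04% of all genes were called. Of 45 mitosis genes, 35 DNA replication genes and 13 cell cycle inhibitors and G1 cyclins 0 were called, with medians of 0.05, 0.02 and 0.06 on the log2 scale. AURKA, which encodes Aurora A, had a change of 0.13 ± 0.10 and AURKB, which encodes Aurora B, of 0.08 ± 0.13. INCENP had 0.35 ± 0.14, CDCA8 0.19 ± 0.12 and BIRC5 0.06 ± 0.09, and none of the 5 was called. However, a second BIRC5 probe gave 0.46. AURKC was above background on 0 arrays. The proliferation marker MKI67 and the growth regulators MYC and CCND1 had changes of -0.10, -0.14 and 0.25, and CCND1 was called with the chip as a fixed block (0.32, adjusted p = 0.00947). Lists of ribosome biogenesis (24 measured), tRNA synthetases (18), proteasome subunits (33), the respiratory chain (31), lysosomes (33), fatty acid synthesis (14), NRF2 (16), tubulins (11), metallothioneins (6), AHR targets (4) and melanocyte lineage genes (5) also held 0 called genes. In data simulated for this comparison, a set 2-fold change was recovered for 99% of the altered genes and a set 1.5-fold change for 87%. The simulated arrays varied independently, whereas same-numbered inhibitor arrays here deviated together. The changes were added to normalized log2 values, so any damping of changes near background was not simulated, and the shares may be too high for dim genes. Smaller changes, such as those of the cell cycle lists, were not simulated, so these shares do not cover them. A p that misses the threshold does not show that a gene did not differ.

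**Figure D3:**
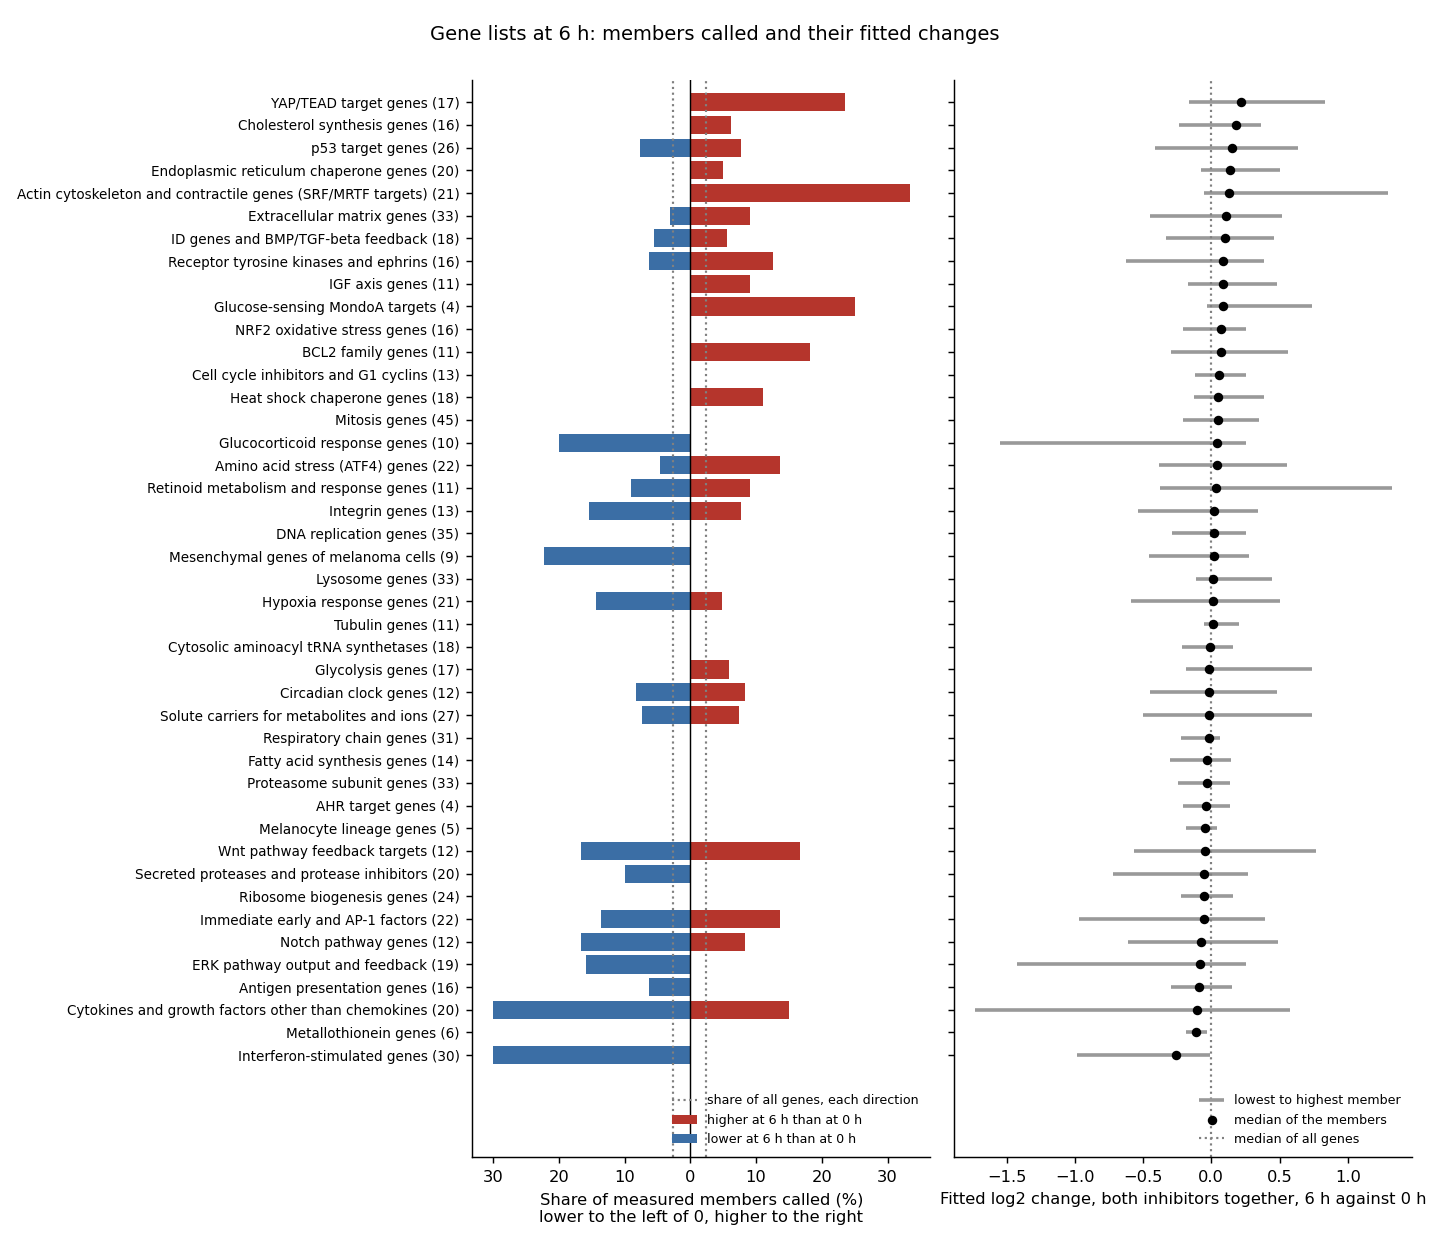
Left, the share (%) of each gene list's measured members (number in brackets) that was called lower (left of 0) or higher (right of 0) with both inhibitors together at 6 h, with dotted lines at the share of all genes in each direction. Right, the fitted log2 change of the members from lowest to highest with the median as a point. The actin list has 7 of 21 members higher and 0 lower, and the interferon list has 9 of 30 lower and its highest member at -0.01.

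Some calls ended when 1 array was left out or under another setting. With the replicate number as a block, SMURF1 (adjusted p = 0.118), BHLHE41 (adjusted p = 0.0852), ZEB2 (adjusted p = 0.0838), TAPBP (adjusted p = 0.0678) and INSIG1 (adjusted p = 0.058) were not called, besides MAFF. Control replicate 4 has no inhibitor array of its number at 6 h, so that fit in effect leaves it out. SMURF1, BHLHE41, ZEB2 and TAPBP had the same changes there as without control replicate 4, so these are not separate checks. Of genes given with a size, CPA4, SYNC, GADD45B and CRIM1 were above background on 2 of 4 controls. KCNH1, ERBB3, INCENP, MKI67 and SMURF1 were above it on 3 of 4, as was GBP1, given without a size. C11orf96, SMURF1 and MKI67 were above background on 5 of 6 inhibitor arrays and RIGI on 4 of 6. Without control replicate 1, the receptor gene NOTCH1 was 0.44 higher (adjusted p = 0.0516) in place of 0.49, and BAG3, a co-chaperone, was 0.34 higher (adjusted p = 0.0795) in place of 0.38. INSIG1, which holds back cholesterol synthesis, was 0.31 higher without control replicate 2 (adjusted p = 0.0873) in place of 0.36. Without control replicate 3 the matrix genes THBS1 (0.45, adjusted p = 0.0592, in place of 0.52) and COL6A2 (-0.36, adjusted p = 0.0984, in place of -0.45) were not called. ZEB2, a repressor of epithelial genes, had a change of -0.37 and was not called without SNS-314 replicate 2 or control replicates 1 or 4 (-0.34 to -0.30). The receptor gene ERBB3 had a change of 0.38 and was not called without replicate 3 of AZD1152, SNS-314 or the control (0.33 to 0.37). BHLHE41, a clock repressor, had a change of -0.36 and was not called without AZD1152 replicate 3, SNS-314 replicate 1 or control replicates 2 or 4 (-0.35 to -0.30). For SMURF1, a ubiquitin ligase of TGF-β signalling, the change was -0.33, with the call lost without AZD1152 replicate 3, SNS-314 replicate 1 or control replicates 1, 3 or 4 (-0.34 to -0.29). For TAPBP, of antigen presentation and the 1 called gene of its 16, the change was -0.30, with the call lost without AZD1152 replicate 3, SNS-314 replicate 1 or control replicates 2, 3 or 4 (-0.31 to -0.25). For the integrin gene ITGB8 the change was -0.54, with the call lost without AZD1152 replicate 3, SNS-314 replicate 2 or control replicates 1, 2 or 4 (-0.54 to -0.48). BOK, of the BCL2 family, was above background on 0 of 4 controls, and its call was lost without AZD1152 replicate 3, SNS-314 replicate 2 or control replicates 1 or 3. HSPA1B, a heat shock chaperone with a near-identical copy, had a change of 0.39 and lost its call without any 1 of 8 arrays, all but AZD1152 replicate 2 and SNS-314 replicate 1 (0.34 to 0.42). Of 33 extracellular matrix genes 3 were higher and 1 lower, beside 2.36% and 2.68% of all genes. Only 1 was higher without AZD1152 replicates 1 or 3, SNS-314 replicate 1 or control replicates 1, 2 or 3.

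Each inhibitor was also set against the same 4 controls. With AZD1152, 240 genes were called (2.69% of all), 107 higher (1.2%) and 133 lower (1.49%). With SNS-314, 332 were called (3.72%), 172 higher (1.93%) and 160 lower (1.79%). Both comparisons share their controls, so likeness between them is no result, and the values are given side by side only. DDAH1 had a change of 1.30 with AZD1152 and 1.35 with SNS-314, RDH10 of 1.33 and 1.32, and TAGLN of 1.21 and 1.38. IRAK2 had a change of -1.63 with AZD1152 and -1.80 with SNS-314, CEBPD of -1.52 and -1.36, and LIF of -1.49 and -1.36. The counts rested in part on single arrays: leaving out AZD1152 replicate 2 gave 151 genes for AZD1152, leaving out AZD1152 replicate 3 gave 141, and leaving out SNS-314 replicate 2 gave 218 for SNS-314.

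The difference between the inhibitors was tested directly, as AZD1152 minus SNS-314, which uses no control array. The doses differed, at 0.5 µM and 0.05 µM, so the comparison is of these 2 treatments and not of the compounds at a matched dose. In limma 0 of 8917 genes were called (0%), with 278 at an unadjusted p under 0.05 and a lowest adjusted p of 0.181. The 95% interval of the difference lay within 1 log2 unit of 0 for 99.8% of genes. For 29 of the 30 genes with the largest changes the differences ran from -0.21 to 0.33, and the interval held 0. The other, SPTLC2, was above background on 3 of 3 AZD1152 arrays, 1 of 3 SNS-314 arrays and 0 of 4 controls, so no size of its difference is given (adjusted p = 0.999). A p that misses the threshold does not show that the inhibitors act alike.

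Arrays of the 2 inhibitors with the same replicate number shared a chip and deviated together, with correlations of 0.15, 0.278 and 0.257 between their deviations. With the replicate number as a block 6 genes were called, with 612 at an unadjusted p under 0.05, and these 6 were named after their values were seen. RNA18SN5 (18S ribosomal RNA) stood at 9.54, 9.22 and 9.12 on the AZD1152 arrays and 10.31, 11.08 and 11.74 on the SNS-314 arrays, against 9.28, 10.31, 8.61 and 9.74 on the control arrays. With AZD1152 it was lower than with SNS-314 by a difference of -1.75 (-2.26 to -1.24, adjusted p = 0.0134 with the block). CTSZ, a lysosomal protease, had a difference of -1.10 and SSR3, a subunit of the translocon-associated complex, of 0.83. No size is given for the other 3. TAF5L, a subunit of transcription coactivator complexes, was above background on 0 of 3 AZD1152 arrays and 3 of 3 SNS-314 arrays. ERGIC1, a protein of the early secretory pathway, was above background on 0 of 3 and 2 of 3, and the small RNA gene SCARNA3 on 1 of 3 and 0 of 3.

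**Figure D4:**
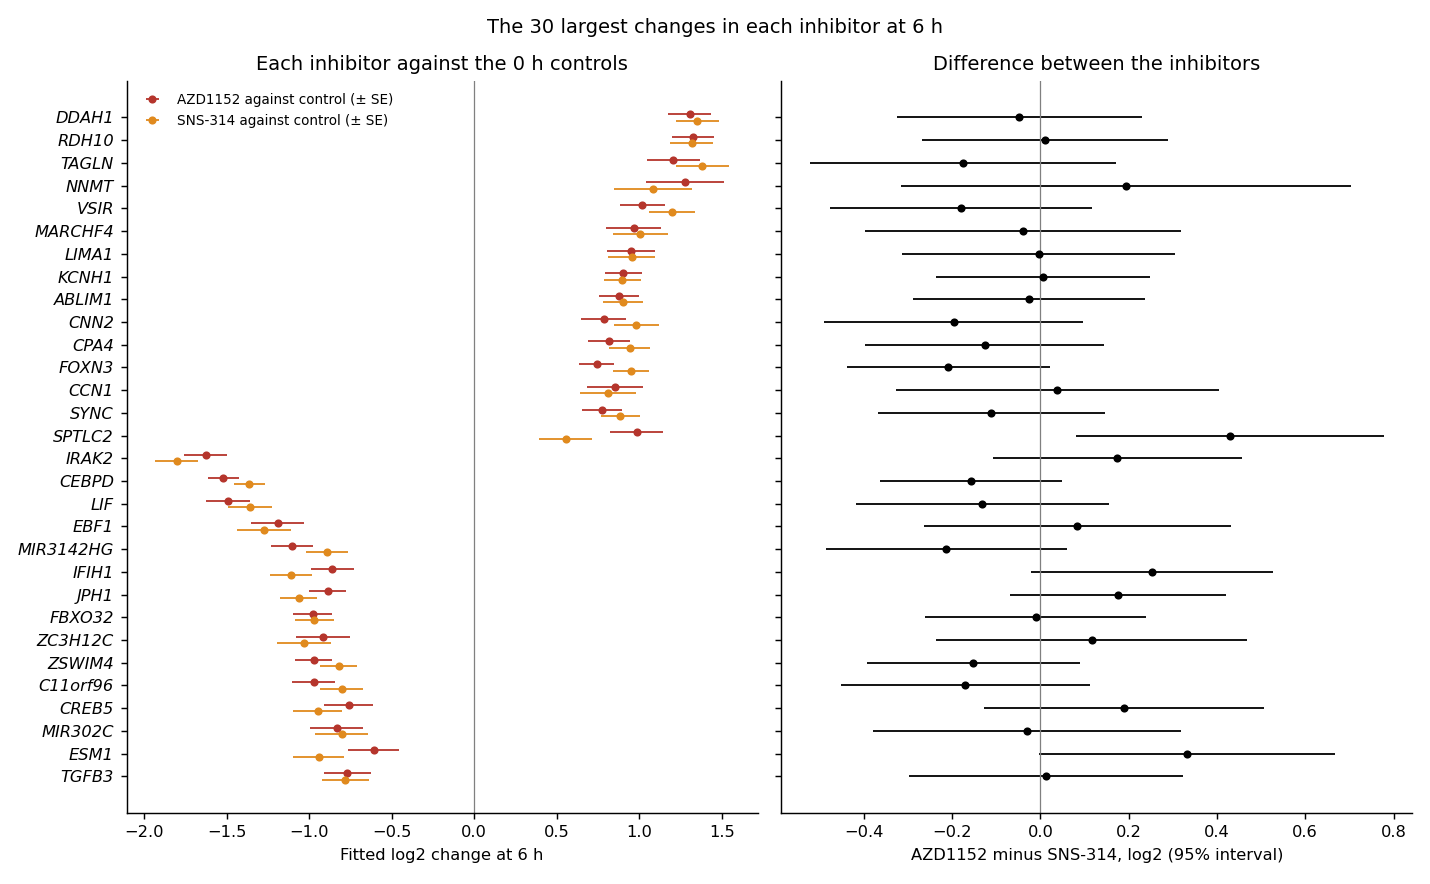
Left, fitted log2 change (± SE) of the 30 genes with the largest changes at 6 h, with AZD1152 in red and SNS-314 in orange, each against the same 4 controls at 0 h. Right, the difference AZD1152 minus SNS-314 on the log2 scale with its 95% interval, which crosses 0 for all of the 30 but SPTLC2. SPTLC2 is drawn at its measured values, although 2 of 3 SNS-314 arrays and all 4 controls were not well above background.

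The 6 h arrays were also compared with the 8 arrays of both inhibitors at 12 h, which uses no control array. There 891 genes were called (9.99% of all), 558 higher at 6 h (6.26%) and 333 lower (3.73%). The 4 genes furthest above their 12 h level were RDH10 (1.38, adjusted p = 4.32e-15), ABLIM1 (1.32, adjusted p = 4.02e-15), NNMT (1.27, adjusted p = 3.36e-07) and KCNH1 (1.22, adjusted p = 4.02e-15). Of the actin genes, LIMA1 was 1.05 higher at 6 h than at 12 h (adjusted p = 2.16e-10), while TAGLN had a difference of 0.28 (adjusted p = 0.122). The 4 genes furthest below their 12 h level were EBF1 (adjusted p = 1.26e-12), RGS16 (adjusted p = 6.95e-15), MMP16, a membrane-bound matrix protease (-1.07, adjusted p = 1.06e-06), and CTLA4, an immune checkpoint receptor (adjusted p = 2.77e-10). EBF1, RGS16 and CTLA4 were above background on 0 of 6 arrays at 6 h, so no size is given. MMP16 had -1.18 to -0.64 under the alternatives, and SNS-314 replicate 2 stood at 9.23, against 10.09 to 10.36 on the other 6 h arrays. Against the 0 h controls its second probe gave -0.04 in place of -0.49. CEBPD had a difference of -0.0002 (adjusted p = 0.999).

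All later times were set against the same 0 h controls. The 209 genes that were higher at 6 h had a median change of 0.45 at 6 h, 0.15 at 12 h, 0.11 at 18 h, 0.06 at 24 h and -0.02 at 48 h. The 211 that were lower had medians of -0.42 at 6 h, -0.26 at 12 h, -0.17 at 18 h, -0.10 at 24 h and 0.08 at 48 h. These genes were chosen on their 6 h values, which the choice favours. DDAH1 had a change of 1.33 at 6 h, 0.38 at 12 h and -0.70 at 48 h. TAGLN had 1.29 at 6 h, 1.02 at 12 h, 0.62 at 24 h and -0.17 at 48 h. IRAK2 was below the controls at every time, at -1.71, -1.42, -1.26, -1.23 and -0.59 in order of time, whereas C11orf96 had -0.89 at 6 h, -0.90 at 12 h and 1.66 at 48 h. The median of the actin list was 0.13 at 6 h, 0.03 at 12 h and -0.14 at 48 h. The median of the interferon list was -0.26 at 6 h, -0.16 at 12 h and 0.17 at 48 h. The mitosis list had medians of 0.05 at 6 h, 0.24 at 12 h and -0.97 at 48 h, and the DNA replication list of 0.02, -0.29 and -1.39 at those times.

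**Figure D5:**
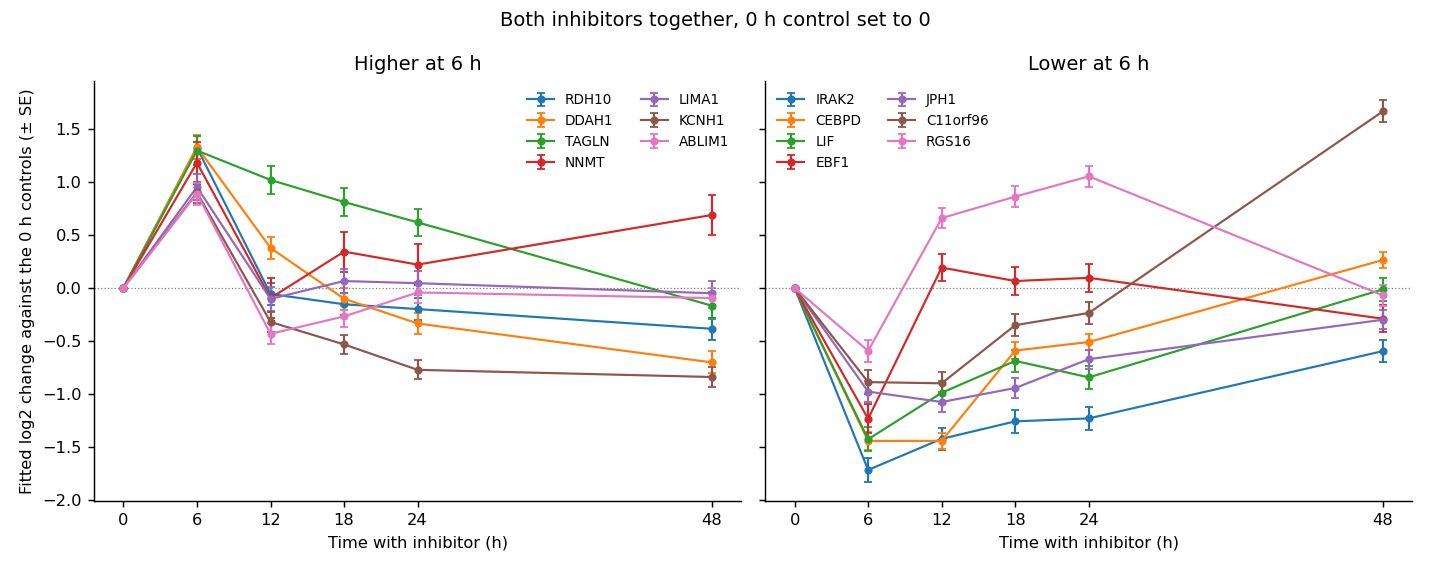
Fitted log2 change (± SE) against the 0 h controls, with both inhibitors together, at 6, 12, 18, 24 and 48 h for 7 genes that were higher and 7 that were lower at 6 h. RDH10, NNMT, LIMA1, KCNH1 and ABLIM1 lie between -0.43 and -0.06 at 12 h, while CEBPD lies at -1.44 at both 6 and 12 h and RGS16 at 0.66 at 12 h.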

How the data were processed

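Total RNA from 1205Lu cells was measured on Illumina bead arrays, 42 in all. The authors deposited a table of raw probe intensity values and a table of log2 values with a median of 8.15 per array, and how these were made is not given in the sources used here. Of the deposited files, the raw table carries 2 disagreeing header lines. The second was used, because its columns match the log2 table in 42 of 42 cases. The intensities were corrected with normexp (offset 50), quantile normalized and converted to log2 (limma 3.58.1, R 4.3.3). No detection p-values were used. Background was instead set per array at the 95th percentile of the dim probes' spread, and a probe was kept if above it on at least 3 arrays of 1 group, leaving 13481 of 47312 probes. Of all probes 30110 had 1 gene symbol in GEO's platform annotation, 8 had several and 17194 had none. For 30071 of those with 1 symbol the Entrez identifier was found in RefSeq, and the RefSeq symbol was used, whether or not it differed. The brightest kept probe stood for each of 8917 genes, of which 1983 had several.

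A group-means model over all 42 arrays and 11 groups was fitted with limma, with Benjamini-Hochberg adjustment over all genes and a threshold of 0.05. Bounds set the brighter group's mean against the background threshold or the dim probe's own signal, whichever was higher. The number of arrays limits the precision, and the median SE was 0.103 on the log2 scale. The genes named were the 15 largest rises and 15 largest falls outside the lists set aside, up to 2 called members of each list, up to 4 genes per direction where inhibitors or times were compared, and 11 fixed genes. The members and lists were chosen with earlier results of these data known. Same-numbered arrays of the 2 inhibitors at 6 h deviated together (correlations of 0.15 to 0.278), and each number lies on 1 chip there. Number and chip therefore cannot be told apart among those arrays. Control replicates 1 and 2 lie on chip 2 and replicates 3 and 4 on chip 3, so with the controls number and chip differ. Same-numbered inhibitor and control arrays correlated at -0.00321 to 0.389, not all over 0.1 (highest for SNS-314 and control replicate 1, both on chip 2), and were not taken as pairs. The fits were tested on simulated data. Alternatives were the deposited log2 values, other background correction, scaling, filters and probe rules, chips or replicate numbers as blocks, and leaving out each array.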

Additional observations from a re-analysis of the deposited data

Results flagged for a closer look

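Among the 4 control arrays, 1 array stood far from the other 3 for 5 of 85 named genes, by Dixon's test, and chance flags about 1 in 20. For RDH10 control replicate 2 was at 10.7358, against 10.9133 to 10.9488 in the others. For NNMT control replicate 1 was at 9.3116, against 8.9808 to 9.0262. For the probe annotated to MIR302C control replicate 4 was at 8.1887, against 8.4901 to 8.5058. For HEY1 control replicate 3 was at 9.6538, against 9.836 to 9.8693. For INCENP control replicate 3 was at 7.7892, against 8.9274 to 9.0808, and the change of INCENP was 0.76 within chip 3, which holds that array, and -0.02 within chip 2.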

How the results depend on the processing

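No called value of a named gene changed its sign under the alternatives run. Of 85 named genes 2 that were not called did so within chip 2, AURKB (-0.05 in place of 0.08) and INCENP (-0.02 in place of 0.35). Of 46 list medians 21 changed sign under at least 1 alternative, all of them between -0.10 and 0.07 as reported, so these medians have no settled direction. Among them, the Notch list reached 0.14 in place of -0.08, the BCL2 list -0.04 in place of 0.07 and the glucocorticoid list -0.06 in place of 0.04. Scaling to the 75th percentile turned the larger share of calls from lower to higher, as given above. Of 60 counts recomputed with other processing 59 stayed within 1.5 times, and the exception was the comparison of the inhibitors, with 6 genes called with the replicate number as a block in place of 0. Within chip 2 the counts were 99 for both inhibitors, 39 for AZD1152 and 75 for SNS-314, and within chip 3 they were 136, 57 and 140, from fewer arrays. Leaving out 1 array gave 323 to 412 genes for both inhibitors, 141 to 216 for AZD1152, 218 to 286 for SNS-314, 0 to 0 between the inhibitors and 697 to 1015 between 6 h and 12 h. Of 993 values of named genes under other processing 970 kept their side of the threshold, 19 lost it and 4 gained it, and on leaving out 1 array 820 of 862 kept it. Of 549 list medians under other processing 34 moved by more than the spread. The test without the chemokine and NF-κB lists was chosen after seeing the data. Signal over background limits 232 genes that were below background on all 10 arrays.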

Other observations

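Probes without a gene symbol in the annotation belong to no comparison above. Of 2243 such probes above background, 68 were called in limma with both inhibitors together at 6 h (3.03%), 30 higher and 38 lower, with a largest rise of 0.87 and a largest fall of -2.58 on the log2 scale.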
